A study of Triticum aestivum with 18 samples.

Results

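Transcript levels of the embryo and of the endosperm were compared in wheat seeds (Triticum aestivum, 1 bread wheat cultivar) that had been given abscisic acid (ABA). The comparison took the arrays titled as ABA embryo and ABA endosperm, which were 6 of the 18 Affymetrix Wheat Genome Arrays of the study, 3 for each tissue. Both groups, ABA_embryo and ABA_endosperm, came from seeds treated with 100 mg/L ABA, and the labels give 16 h of imbibition for every sample. The other groups were seeds in pure water (CK_embryo, CK_endosperm) and seeds given 100 μmol H2O2 (H2O2_embryo, H2O2_endosperm), also with 3 arrays each. The labels number the arrays of a group as biological replicates, and the Methods describe tissues parted by hand from seeds incubated on wet filter paper in the dark. The Methods place the harvest of the treated seeds at the moment when the radicle just emerged. The study's Results put the harvest at 16 h of imbibition in water with the radicle out. No separate time is given for ABA-treated seeds. A legend of the study marks 1 tissue fraction as E/A without spelling the letters out, and the Methods do not say to which tissue the aleurone layer and the seed coats went.

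ABA is the hormone that keeps a mature seed from germinating. It acts through receptors that hold back protein phosphatases of type 2C, which frees kinases and bZIP transcription factors that switch on genes for late embryogenesis abundant (LEA) proteins and other maturation genes. The embryo holds the axis and the scutellum and stores oil and lectins. The endosperm consists of the starchy endosperm, which is dead at maturity and holds starch and gluten proteins, and of the living aleurone layer around it, which secretes amylases and proteases once gibberellin is perceived and whose response to gibberellin is blocked by ABA.

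Each value below is a MAS5 signal, a summary of the probes of 1 probe set in arbitrary units after scaling of the whole array. The 6 arrays were alike in overall level, with median signals of 60.3 to 68.2 in ABA_embryo and 59.0 to 70.9 in ABA_endosperm, and with 17.7 to 20.6% and 19.8 to 20.8% of probe sets below a signal of 10. The squared correlation of log2 signals across probe sets was 0.904 to 0.914 between embryo arrays, 0.866 to 0.899 between endosperm arrays and 0.815 to 0.858 between the tissues. The labelled tissues were checked against marker genes. Of 27 tested probe sets listed as markers of the starchy endosperm, 14 were higher in ABA_endosperm and none in ABA_embryo. The 2 of BJ299669 are described only as storage proteins, without a tissue, and the other 25 gave 12 endosperm calls and 0 embryo calls. The summed signal of the 27 was 81430 to 87999 on the endosperm arrays against 23703 to 24961 on the embryo arrays. The 2 probe sets of BJ299669, a storage protein named from the study's tables, carried most of it. Without BJ299669 and the avenin-like protein BJ321823, both chosen for this after their values were seen, the other 24 summed to 3417 to 3470 and to 613 to 798. Of 11 embryo markers, 9 were higher in ABA_embryo and 1 in ABA_endosperm, with sums of 325300 to 354419 and 180878 to 206966. In CK the same 11 gave 2 embryo and 2 endosperm calls, the embryo calls being agglutinin (M25537) and germin (M21962). The tissue difference of 8 lay further toward the embryo under ABA than in CK. Most of the list is Em proteins and oleosins, so its count under ABA is a weak check of the tissue labels. Of 10 aleurone markers, 1 had the higher level in ABA_embryo and 2 in ABA_endosperm, with sums of 102463 to 108459 and 153785 to 185647. A low molecular weight glutenin (CD868513), a gluten protein of the starchy endosperm, read 10.9, 33.5 and 8.03 on the embryo arrays and 516, 655 and 740 on the endosperm arrays. In bulk tissue, fewer cells of a type cannot be told apart from less RNA per cell.

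The first question was how much of the transcriptome differed between the tissues while ABA was present. Of 61179 wheat probe sets, 46679 passed a filter on low signals and were tested, and 13846 of these (29.7%) were called different at a Benjamini-Hochberg adjusted p below 0.05 in limma. Of the tested probe sets, 8265 (17.7%) were higher in ABA_embryo and 5581 (12%) were higher in ABA_endosperm. Large differences lay mostly on the endosperm side. A difference of 10-fold or more was found for 247 probe sets higher in the endosperm and for 72 higher in the embryo, whereas at 2-fold or more the counts were 2545 and 3812. All 3 arrays of the higher tissue lay above all 3 of the other for 99.2% of the embryo calls and 98.8% of the endosperm calls. The calls were made on these same arrays, so this separation largely follows from them and adds no support. The balance of small differences depended on the scaling. Embryo calls were 59.7% of all calls with the MAS5 scaling, 54.3% after quantile normalization and 43% after scaling to the 75th percentile, with median log2 differences of 0.09, 0.04 and -0.09 over all tested probe sets. The 75th percentile of the signals was 381 to 393 on the embryo arrays and 337 to 343 on the endosperm arrays.

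**Figure D1:**
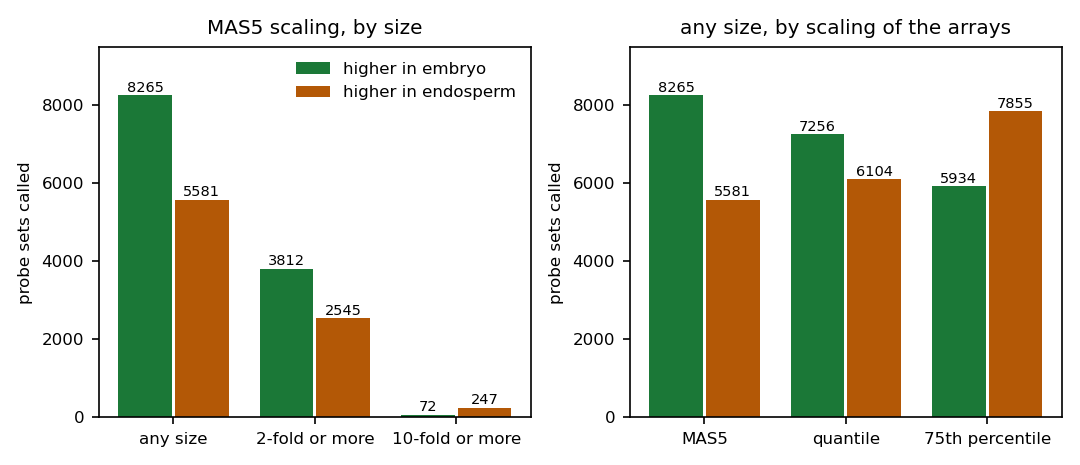
Number of probe sets called higher in ABA_embryo (green) and in ABA_endosperm (orange), by size of the difference under the MAS5 scaling (left) and by scaling of the arrays for differences of any size (right). At 10-fold or more the endosperm side counted 247 against 72, and with the 75th percentile scaling the endosperm side was the larger at any size.

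Only 1965 of the 61179 wheat probe sets carried a name, class or description, so most calls concern genes without one. Of 1624 such probe sets that were tested, 329 had the higher level in ABA_embryo and 371 in ABA_endosperm. Genes were grouped into lists by these descriptions, and the counts of each list are read against the 17.7% and 12% above. Some descriptions come from tables in which the study listed genes that changed with ABA or H2O2 in these same samples, and a list that rests on them is no independent evidence of its direction. Probe sets whose identifier ends in _x_at, _s_at or _a_at can take up signal from related transcripts, so near-identical family members and the homoeologous copies of hexaploid wheat are not resolved.

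**Figure D2:**
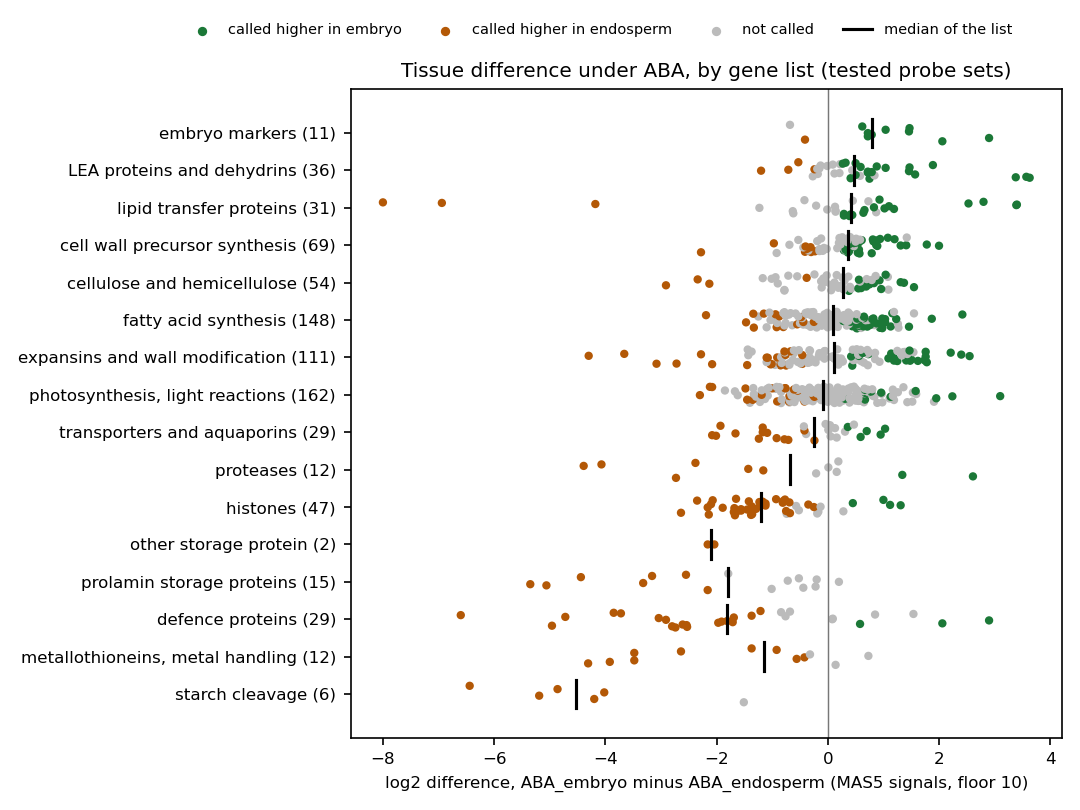
Log2 difference (ABA_embryo minus ABA_endosperm) of every tested probe set in 16 gene lists, with the number tested in brackets, called probe sets in colour, probe sets not called in grey and the median of the list as a black bar. Starch cleavage (median -4.53) and the defence proteins (-1.81) lie on the endosperm side, and LEA proteins (0.47) and embryo markers (0.79) on the embryo side.

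Several genes for defence and lipid transfer proteins were far higher in the endosperm. BJ296643, annotated as a type 1 non-specific lipid transfer protein precursor, a small secreted protein that binds lipids, read 248, 347 and 247 on the embryo arrays and 85759, 60525 and 68774 on the endosperm arrays. The groups were far apart, with a log2 difference of -8.0 ± 0.15 (SE, n = 3 per tissue, adjusted p = 2.8e-11), a 256-fold difference. Genes named here for the largest differences had to have separated arrays, so their lack of overlap is no added support. The second probe set of this gene read 572 ± 17.4 in the embryo against 71032 ± 13961 in the endosperm (mean ± SD). The study's own table files BJ296643 under ubiquitin-conjugating enzymes, so its annotation is not settled. Pathogenesis-related protein 1 (BM136002), a secreted defence marker, read 171, 204 and 181 on the embryo arrays and 19211, 18218 and 16528 on the endosperm arrays, 97.0-fold higher there (adjusted p = 8.4e-12). Every endosperm array was again above every embryo array. Pathogenesis-related protein 4 (CD915938), a chitin-binding protein, was 13.1-fold higher in the endosperm, with means of 1174 and 15428. A glucan endo-1,3-beta-D-glucosidase (Y18212), which cleaves glucans of fungal and plant walls, was 26.3-fold higher there, and the xylanase inhibitor XIP-I (CA665158) 5.83-fold at the probe set with the higher signal.

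Of 29 tested probe sets for defence proteins (germins, chitinases, glucanases, thaumatins and others), 19 were higher in the endosperm and 3 in the embryo, with a median log2 difference of -1.81 against 0.09 over all tested probe sets. The 22 of them whose names did not come from the study's tables of changed genes split 15 to 2. The exceptions on the embryo side included agglutinin isolectin D (M25537), the germ lectin of wheat. It read 17395, 19087 and 16275 on the embryo arrays and 4273, 4217 and 4162 on the endosperm arrays, a 4.16-fold difference. Germin (M21962), an oxalate oxidase of the germinating embryo, read 1366, 1487 and 1295 against 169, 174 and 217, a 7.45-fold difference. Both M25537 and M21962 lie wholly above the endosperm arrays. Other probe sets named oxalate oxidase or germin were not called. In embryo and endosperm, CA615555 had means of 1353 and 1275, CA611128 of 837 and 787, and CA694320 of 25.5 and 37.9.

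**Figure D3:**
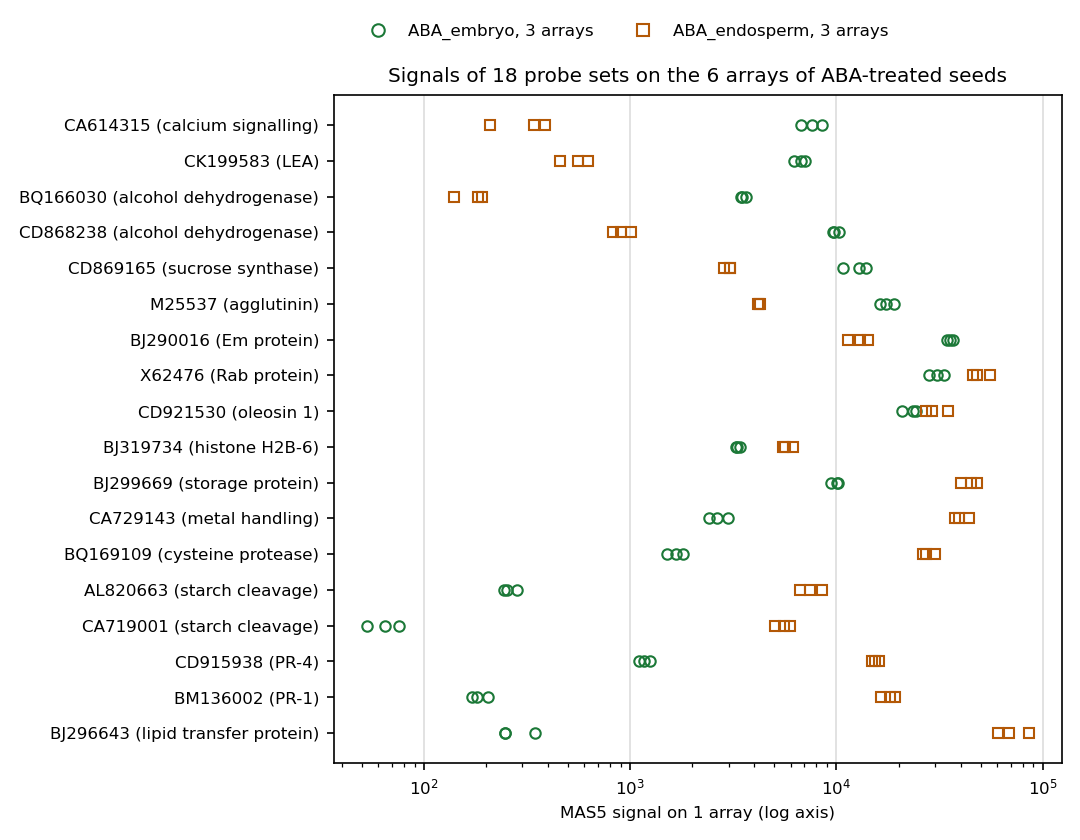
MAS5 signal (log axis) of 18 probe sets on each of the 3 ABA_embryo arrays (green circles) and the 3 ABA_endosperm arrays (orange squares), each gene by its probe set with the largest difference. The 18 were picked among probe sets called on these arrays, some by a rule that required separated arrays. That the tissues do not overlap for any of them is therefore no separate result. The lipid transfer protein BJ296643 spans from 247 to 85759.

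Genes for starch cleavage, the breakdown of starch by amylases and related enzymes, were far lower in the embryo than in the endosperm under ABA. The list had 7 probe sets. The 6 that passed the filter on low signals all carry the study's class for starch cleavage in its tables of changed genes, and BJ265463, which entered by its platform symbol, did not pass. Of these, 5 were higher in the endosperm, by 16.2- to 86.5-fold, and the list's median log2 difference was -4.53. CA719001 read 64.6, 75.9 and 52.8 on the embryo arrays and 5966, 5048 and 5566 on the endosperm arrays. AL820663 read 253, 282 and 243 against 8558, 7459 and 6677. The endosperm arrays of both lay wholly above. The sixth, BQ169398, had means of 21.3 in the embryo against 58.1 in the endosperm and was not called (adjusted p = 0.0997), while in CK its endosperm mean was 983 ± 224. In CK the 5 others were higher in the endosperm as well, and the means of both tissues lay above those under ABA for all 5. CA719001 was at 1409 ± 5.72 in CK_embryo and 15996 ± 280 in CK_endosperm, and AL820663 at 2440 ± 50.3 and 18390 ± 753. The tissue difference of all 5 was larger under ABA than in CK, by 1.13 to 2.93 on the log2 scale (limma interaction term, largest adjusted p = 0.00055), where 4.65% of all tested probe sets moved that way. The study had named these genes for changes in these same samples, so their interaction is no independent evidence.

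Most protease calls were also on the endosperm side. Of 12 tested probe sets, 6 were higher in the endosperm and 2 in the embryo, though the 4 that were not taken from the study's tables gave 1 embryo call and none for the endosperm. The cysteine protease BQ169109 read 1514, 1811 and 1667 on the embryo arrays and 29934, 26413 and 27180 on the endosperm arrays, 16.8-fold higher there. AJ612538, of the same class, was 20.9-fold higher and the serine protease CK208190 5.2-fold. Another cysteine protease, AB109216, went the other way, with 2382, 2478 and 2314 in the embryo against 273, 451 and 486. These proteins cleave storage proteins in germinating cereal grains, and which substrate each one has was not measured. A glutamine synthetase (AY491968), which takes up the ammonium set free from amino acids, was 12.4-fold higher in the endosperm.

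Storage protein transcripts were higher in the endosperm, and the embryo level under ABA was not low. BJ299669, of the study's class of storage proteins, read 7472, 8103 and 8716 on the embryo arrays and 31556, 33283 and 34976 on the endosperm arrays at one probe set, and 10088, 9435 and 10204 against 47915, 40128 and 44756 at the other. The endosperm was 4.11- and 4.46-fold higher. In CK the endosperm means were 32009 and 35166 in the same order, whereas the embryo means were 102 ± 19.8 and 193 ± 15.6. The tissue difference was therefore smaller under ABA by 6.27 and 5.35 on the log2 scale (adjusted p = 4.4e-15 and 6.3e-16). Gluten proteins had low signals. Of 15 tested prolamin probe sets, 7 were higher in the endosperm and none in the embryo, with median signals over the 15 of 124 and 17. An avenin-like protein (BJ321823) was not called, with means of 5439 and 4732.

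Metal-binding proteins were another endosperm group, with 9 of 12 tested probe sets higher there and none higher in the embryo. CA729143 of the study's class for metal chelation and storage read 2633, 2969 and 2408 on the embryo arrays and 43864, 37602 and 39284 on the endosperm arrays, 15.1-fold higher, and CA666515 was 19.8-fold higher. The Ec proteins are zinc-binding metallothioneins of the mature seed. One Ec probe set (CD906435) had means of 23128 and 60072, and another (CD906539) of 56589 and 83663. Their tissue differences were smaller than in CK, where CD906435 was at 2037 ± 71.5 in the embryo against 54656 ± 1433 in the endosperm (interaction 3.37, adjusted p = 1.6e-13). Of the 3 probe sets in the study's class for metal handling, CA729143 and CA666515 moved the other way, with interactions of -1.17 and -1.02, while that of BF200045 was -0.13 (adjusted p = 0.831). The aleurone marker 1-Cys peroxiredoxin (AY304482), a seed antioxidant, was not called under ABA, with 23261 ± 1777 in the embryo against 24774 ± 1206 in the endosperm.

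On the embryo side, among described calls with a mean of 500 or more, the leading differences were those of a calcium signalling gene, 2 alcohol dehydrogenases, an ethylene-responsive gene and a LEA gene. CA614315, classed under calcium signalling, read 7641, 6760 and 8485 on the embryo arrays and 210, 388 and 343 on the endosperm arrays. The embryo was 25.0-fold higher (log2 4.64 ± 0.19, adjusted p = 1.2e-08). Alcohol dehydrogenase, which regenerates NAD from acetaldehyde when oxygen is short, gave 3 such probe sets. BQ166030 read 3482, 3641 and 3441 against 192, 140 and 182, CA605311 read 3793, 3820 and 3697 against 240, 242 and 243, and CD868238 read 9607, 9693 and 10297 against 899, 1010 and 822. The embryo was 20.7-, 15.6- and 10.9-fold higher. A triosephosphate isomerase of glycolysis (CA639484) was 3.56-fold higher in the embryo. In contrast, 2 aldehyde dehydrogenases (CA681784 and CD891243), a hexokinase (BJ246057) and an aldolase (BJ265323) were higher in the endosperm. The 11 tested probe sets of glycolysis and fermentation thus split 4 to 4. Of the 11, 6 were from the study's tables of changed genes, and the 5 others gave 0 embryo and 2 endosperm calls. Sucrose synthase type I (CD869165), which splits sucrose for growth and wall synthesis, read 12839, 10714 and 13846 on the embryo arrays and 2860, 3041 and 3035 on the endosperm arrays. It was 4.16-fold higher in the embryo. The 15 tested probe sets for sucrose and fructan enzymes gave 3 embryo and 6 endosperm calls, and the 13 of them not from the study's tables gave 2 and 6, with a median of -0.32. Sucrose-phosphate synthase, which makes sucrose, was called on both sides. BT009079 and CD454434 were higher in the endosperm, with means of 31.3 and 365 and of 209 and 1015. BT009472 was higher in the embryo, with 2256 against 1745, and CD910522 and CA716620 were not called.

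For several of these genes the tissues were closer to each other in CK, where the endosperm means were higher than under ABA. CA614315 had means of 8262 ± 274 in CK_embryo and 3676 ± 288 in CK_endosperm, CD868238 of 8815 ± 498 and 3667 ± 419, and CA639484 of 7667 ± 401 and 9278 ± 448. The tissue difference lay further toward the embryo under ABA by 3.47, 2.17 and 2.11 on the log2 scale. For CA639484 the direction changed, with a log2 difference of -0.28 in CK and 1.83 under ABA. Glutathione and other redox genes gave 2 embryo and 7 endosperm calls among 30 tested probe sets, and 1 and 6 among the 25 not from the study's tables. Both embryo calls were large. The glutathione S-transferases AY064480 and AF479764, which join glutathione to reactive compounds, were 8.63- and 6.93-fold higher, with means of 1433 against 170 and 537 against 77.7. Neither interaction with CK passed the threshold (adjusted p = 0.14 and 0.883). Of the 7 endosperm calls, 6 were other glutathione transferases with smaller differences, such as BJ241436 with means of 14150 and 20414 and CA649877 with 1265 and 2585.

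LEA proteins and dehydrins, the protective proteins of dry seeds, gave 19 embryo calls and 4 endosperm calls among 36 tested probe sets. The median log2 difference was 0.47, and 3 of the 36 came from the study's tables. With the 75th percentile scaling the counts were 15 and 7. CK199583 read 6255, 6767 and 7050 on the embryo arrays and 454, 622 and 557 on the endosperm arrays at the probe set with the largest difference, 12.4-fold. Its other 2 probe sets were 10.4- and 11.9-fold higher in the embryo. The Em proteins, which are the classic ABA-induced LEA proteins of the wheat embryo, differed less. BJ290016 read 57603, 54358 and 54655 on the embryo arrays and 29032, 25932 and 26183 on the endosperm arrays, a 2.06-fold difference, and CD490538 gave a 1.65-fold difference. All embryo arrays were above all endosperm arrays for both.

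The median LEA signal of both tissues was higher under ABA than in CK. Over the 36 probe sets it was 4882 in ABA_embryo, 2410 in ABA_endosperm, 1107 in CK_embryo and 1678 in CK_endosperm. BJ290016 was at 6195 ± 173 in CK_embryo and 6293 ± 60.5 in CK_endosperm, where the tissues were not called different (adjusted p = 0.809). The tissue difference of 21 LEA probe sets moved toward the embryo under ABA relative to CK and that of 2 toward the endosperm, beside 4.31% and 4.65% of all tested probe sets. The Rab protein X62476, a dehydrin induced by ABA, was higher in the endosperm under ABA, with 30594, 33091 and 28134 against 55593, 46066 and 48183. In CK it was at 1092 ± 54.2 in the embryo against 27575 ± 1692 in the endosperm, so that its interaction was 3.95 (adjusted p = 7.0e-14). Of the ABA pathway itself, 4 probe sets were tested. The protein phosphatase 2C BQ807036, of the class that represses ABA signalling, read 8555, 8605 and 7411 on the embryo arrays and 5932, 5037 and 5905 on the endosperm arrays (1.46-fold, adjusted p = 0.0008), whereas in CK it was lower in the embryo (1216 ± 68.2 against 3121 ± 264). The ABA response element binding factor AF519803, a bZIP factor, was not called, with overlapping values of 4525, 6761 and 6134 against 6865, 3424 and 4160.

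Oil body and lipid store genes gave 8 tested probe sets, 3 higher in the embryo against 1 in the endosperm. An acyl-CoA:diacylglycerol acyltransferase of the TAG1 (DGAT1) type (BE515598), which makes the storage oil triacylglycerol, read 2591, 2616 and 2325 in the embryo against 494, 438 and 416 in the endosperm, 5.59-fold higher. Of the 4 other probe sets of this type, BT009528 was also called, with means of 1802 and 793. The remaining 3, 2 of BJ322102 and 1 of BJ268713, were not called, with log2 differences of -0.24, -0.20 and -0.06. Oleosins coat the oil bodies of the scutellum and of the aleurone, and they were not all on one side. CD920884 had means of 15011 and 9737, and CD921530 of 22826 and 30401. Under quantile normalization no oil body probe set was called higher in the endosperm, so the call of CD921530 (adjusted p = 0.0114) depends on the scaling. In CK both oleosins were far higher in the endosperm, with 885 ± 14.2 against 4050 ± 87.2 for CD920884 and 796 ± 97.5 against 6288 ± 299 for CD921530, and their interactions were 2.82 and 2.58.

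Other lipid genes were called in both directions. Fatty acid synthesis, elongation and desaturation gave 35 embryo and 13 endosperm calls among 148 tested probe sets, and lipid degradation 24 and 12 among 116. These are shares of 23.6% and 8.78%, and of 20.7% and 10.3%, beside 17.7% and 12% of all tested probe sets. The median log2 differences were 0.09 and 0.06 against 0.09 over all, so these lists lay near the whole array. With the 75th percentile scaling, 25 probe sets of fatty acid synthesis were called higher in the endosperm. A FAD2 desaturase (BJ298936), which makes linoleic acid, had means of 5117 and 12910, and a beta-ketoacyl-CoA synthase (CA593590), which elongates fatty acids, of 8869 and 4500. Of 31 tested probe sets for lipid transfer proteins, 16 had the higher level in ABA_embryo and 3 in ABA_endosperm, with a median of 0.41, even though the lipid transfer protein BJ296643 led the described genes toward the endosperm. The family member BQ838076 read 1475, 1494 and 1505 on the embryo arrays and 218, 117 and 111 on the endosperm arrays.

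Cell wall genes lay on both sides. Of 69 tested probe sets for the synthesis of wall precursors, 32 had the higher level in ABA_embryo and 9 in ABA_endosperm, but the counts were 16 and 12 with the 75th percentile scaling, so the excess of embryo calls in this list depends on the scaling. Cellulose and hemicellulose synthesis gave 16 and 4 calls among 54, wall degradation 17 and 18 among 119, and expansins and other wall-modifying proteins 24 and 20 among 111. Phosphomannomutase makes mannose 1-phosphate for wall sugars and ascorbate. CK198230, a phosphomannomutase, read 680, 498 and 663 on the embryo arrays and 103, 204 and 167 on the endosperm arrays, 3.99-fold higher in the embryo, and its second probe set 2662, 2766 and 3045 against 1072, 1190 and 1149. Expansin A1 (AY485121) is a protein that loosens walls of growing cells. It read 2906, 2872 and 2615 against 1315, 985 and 1260, a 2.37-fold difference. Both genes were among those for which the study designed quantitative PCR primers. They are shown because they are the sequences by which the study measured these genes outside the arrays, and they were not matched to the probe sets here. They stand in lower case and from 5′ to 3′, without capitals since no part of them is set apart:
CK198230 forward: ggtgtcagtgcttcgtgaaa
CK198230 reverse: tgatcattgccacccttgta
AY485121.1 forward: catcaacggccactcctact
AY485121.1 reverse: aaggtgttgctctgccagtt

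The wall genes with large differences toward the endosperm included a beta-expansin. AY543538, matched to Arabidopsis EXPB2, read 622, 591 and 465 on the embryo arrays and 10467, 11592 and 10701 on the endosperm arrays, 19.6-fold higher there. In CK its means were 1328 ± 93.7 and 5223 ± 639, a smaller difference (interaction -2.33, adjusted p = 2.8e-09). A glycosyl hydrolase of family 3 (BJ274015), a group that trims wall sugars, had means of 2112 and 22786, a 10.8-fold difference. The xyloglucan endotransglucosylase/hydrolase XTH5 (CA631663), which cuts and rejoins xyloglucan, was on the embryo side, with 5868 against 2121 and 7072 against 2582 at its 2 probe sets.

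Histones, the proteins around which DNA is wound and whose transcripts are made mostly during DNA replication, were lower in the embryo than in the endosperm under ABA. Of 47 tested probe sets, 36 were higher in ABA_endosperm and 4 in ABA_embryo, with a median log2 difference of -1.21. Of the 47, 31 were in the study's tables of changed genes. The other 16 gave 10 endosperm and 2 embryo calls, with a median of -0.60. BJ319734 (H2B-6) read 3270, 3280 and 3414 on the embryo arrays and 6178, 5513 and 5635 on the endosperm arrays, a 1.74-fold difference, and BJ209178 read 95.8, 35.7 and 77.7 against 301, 319 and 366, a 5.09-fold difference. The 4 embryo calls were 2 probe sets of D37943, CK217139 and BJ310041, all annotated as histone H2B-8, led by D37943 with 4105, 4299 and 4078 against 1757, 1513 and 1780. A count of 35 and 42 histone probe sets was higher in the endosperm with quantile and 75th percentile scaling.

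The direction in CK was the opposite. There 40 of the 47 had the higher level in CK_embryo and 1 in CK_endosperm, with a median log2 difference of 0.90. The median histone signal was 2059 in CK_embryo, 517 in ABA_embryo, 1072 in CK_endosperm and 917 in ABA_endosperm. The mean was lower under ABA than in CK for 45 of the 47 in the embryo and for 20 of the 47 in the endosperm. The tissue difference moved toward the endosperm for 38 probe sets and toward the embryo for 1, with a median interaction of -2.14, and 32 probe sets were called in the embryo in CK and in the endosperm under ABA. These counts come from samples in which the study chose 31 of the genes. On the H2O2 arrays, without H2O2_embryo replicate 1, which stands apart from its group, the median signals were 3169 in the embryo against 383 in the endosperm.

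**Figure D4:**
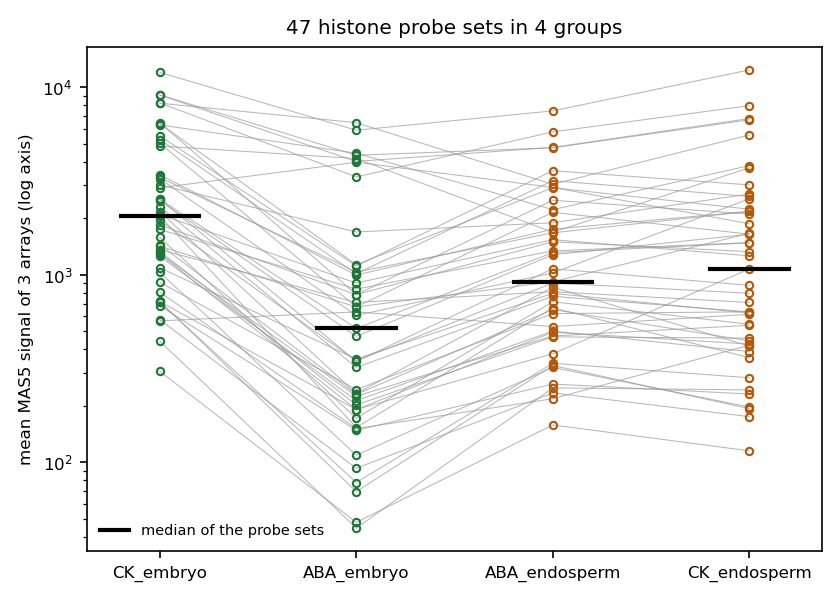
Mean MAS5 signal (log axis) of 47 histone probe sets in CK_embryo, ABA_embryo, ABA_endosperm and CK_endosperm, each point the mean of 3 arrays, with grey lines joining a probe set and black bars at the medians. The medians are 2059, 517, 917 and 1072.

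Genes of the cytoskeleton and cell division gave 5 embryo and 8 endosperm calls among 17 and a median of -0.14. An alpha-tubulin (CA614766) read 7147, 6476 and 6678 on the embryo arrays and 2111, 2155 and 1995 on the endosperm arrays. In CK, CA614766 was at 3191 and 3063. A brighter probe set with the same symbol (U76558) was not called under ABA, with means of 39438 and 43543. An actin (CK160285) had means of 3441 and 6182. Among 15 probe sets for ribosomal proteins and translation factors, 2 had the higher level in ABA_embryo and 5 in ABA_endosperm. BQ579004, an acidic ribosomal protein, had means of 10662 and 29962 under ABA and of 842 and 19326 in CK (interaction 3.03).

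Membrane transport was mainly an endosperm group, with 13 endosperm and 5 embryo calls among 29 tested probe sets. The plasma membrane H+-ATPase ha1 (AY543630), which energises uptake and acidifies the wall, read 4601, 4676 and 4325 on the embryo arrays and 18915, 16681 and 19365 on the endosperm arrays, 4.03-fold higher, and its second probe set was 4.23-fold higher. The sucrose transporter SUT1A (AF408844) had means of 956 and 2162. Subunit A of the vacuolar proton ATPase (CA642292) went the other way, with 7538 against 5906. Of 19 transcription factor probe sets, 5 had the higher level in ABA_embryo and 8 in ABA_endosperm. Myb3 (AJ615787) read 959, 982 and 900 on the embryo arrays and 11053, 9847 and 10139 on the endosperm arrays, 10.9-fold higher. The MADS-box factor TaAGL13 (BJ228622) read 263, 267 and 238 on the embryo arrays and 9.4, 58.1 and 22.2 on the endosperm arrays. Its other probe set differed less, with means of 234 and 92.0, 2.55-fold higher in the embryo. Another TaAGL13 probe set (BJ224514) was not called, with means of 167 and 136. A NAC factor (CK193816) had means of 22027 and 16063. Genes of gibberellin, ethylene, jasmonate and auxin gave 8 and 6 calls among 17, and the 7 not from the study's tables gave 5 and 0. The ethylene-responsive CD866886 read 5699, 5687 and 6126 on the embryo arrays and 443, 508 and 424 on the endosperm arrays, 12.8-fold higher, and a gibberellin metabolism gene (CA695230) had means of 1586 and 5524.

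Plastid genes differed little by count, at low signals. The median signals in ABA_embryo and ABA_endosperm were 51 and 58 for light reactions, and 83 and 76 for the Calvin cycle with photorespiration. Low signals limit what can be called, and their part in these counts was not tested. Light reactions gave 12 embryo and 18 endosperm calls among 162 tested probe sets, and the Calvin cycle with photorespiration 5 and 15 among 93, shares of 7.41% and 11.1%, and of 5.38% and 16.1%, beside 17.7% and 12% overall. The large subunit of Rubisco (AY328025), the carbon-fixing enzyme, was 25589 in the embryo against 38758 in the endosperm, and a small subunit (CK212552) 10038 and 4809.

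Many of the largest differences had no description. The probe set with the largest difference toward the endosperm among the bright, separated calls read 31.1, 11 and 27.8 on the embryo arrays and 26866, 27811 and 26998 on the endosperm arrays, a log2 difference of -10.33 ± 0.30, and the next read 15.8, 21.2 and 16.8 against 11569, 11732 and 12837. On the embryo side, the leading undescribed probe set read 1002, 653 and 1049 against 15.8, 58.7 and 13.1, and AJ612459, an accession with no description, read 560, 596 and 624 against 11.9, 9.23 and 33.4. The lower tissue lies close to the floor of 10 in each, so the sizes rest partly on that floor.

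The last question was how far the tissue difference under ABA matched that in water. In CK, 15089 of 47844 tested probe sets were called, 8900 higher in the embryo against 6189 in the endosperm. On the H2O2 arrays without H2O2_embryo replicate 1, 14229 were called, 7740 and 6489. The embryo was the higher tissue in both ABA and CK for 5463 probe sets, and the endosperm in both for 3564. Another 212 were higher in the embryo under ABA and in the endosperm in CK, and 227 the reverse. The test of the difference between the tissue differences called 4882 of 54462 probe sets (8.96%), 2349 toward the embryo under ABA (4.31%) and 2533 toward the endosperm (4.65%). All 212 and all 227 were among them. For other named genes the interaction did not pass the threshold, among them agglutinin (M25537, 2.06 under ABA and 2.18 in CK, adjusted p = 0.77) and the glucan endo-1,3-beta-D-glucosidase Y18212 (-4.72 and -5.17, adjusted p = 0.828).

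**Figure D5:**
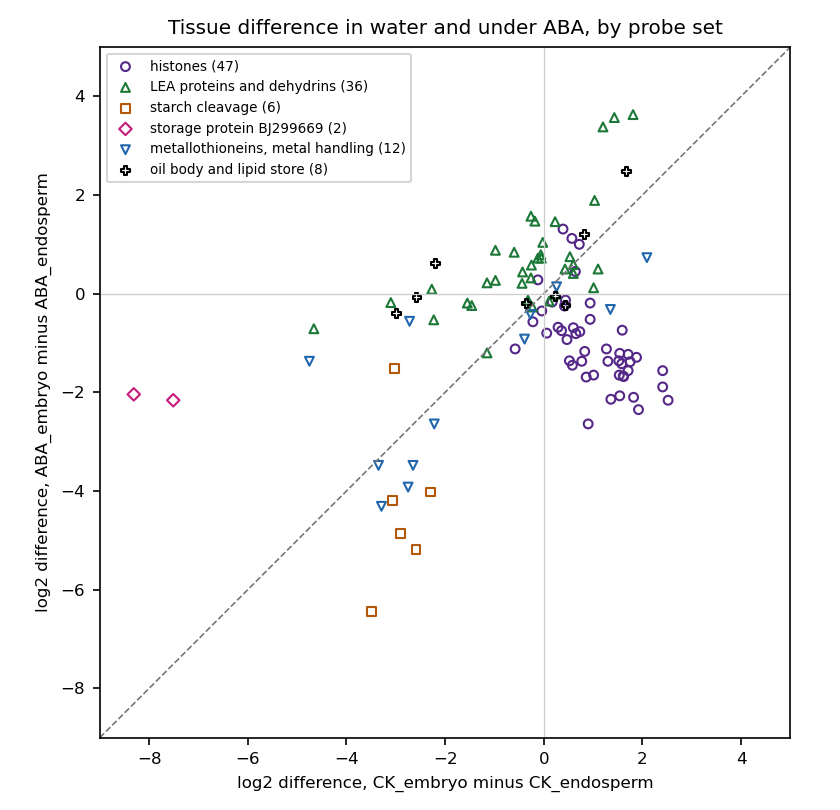
Log2 tissue difference (embryo minus endosperm) under ABA (vertical) against that in CK (horizontal) for the probe sets of 6 gene lists, with equal differences on the dashed line. Most histones lie to the right of 0 in CK and below 0 under ABA, the starch cleavage genes called under ABA lie below the line, and the storage protein BJ299669 lies above it by 5.35 and 6.27.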

How the data were processed

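The values are intensities deposited by the authors: linear signals made with the MAS5 algorithm, which scales each array, 1 column per array and none pooled. The Methods state a scaling target of 100, while the deposited columns have trimmed means (2% off each end) of 495.1 to 498.6. Control probe sets (111 of 61290) were left out. A floor of 10 was applied before the log2 transform, so folds of low genes are understated. Probe sets with a signal of 20 or more on at least 3 of the 6 arrays were fitted in limma 3.58.1 (R 4.3.3; lmFit, eBayes with trend), with a Benjamini-Hochberg adjusted p below 0.05 as the threshold. The interaction with CK was fitted on 12 arrays. The authors' test, SAM, was not run, because its label permutations are another split of the samples. On simulated data for the embryo against endosperm comparison (44503 probe sets), 61 of 100 changes of log2 1 and 90 of 100 of log2 2 were recovered, and 2 unchanged probe sets were called. So few changes were planted there, while 29.7% of tested probe sets were called in the data. These rates need not carry over, since the Benjamini-Hochberg cutoff depends on the share of changes. The number of arrays, 3 per group, limits the precision.

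The members of the comparison, the gene lists and the rules were chosen with earlier results of these data known. Named genes were, in each direction, the 20 described probe sets with the largest difference among those called, separated by array and with a mean of 500 or more in the higher tissue, up to 2 without a description, and per list the 2 brightest and the 2 most different calls, with the brightest member that was not called. CK217139 and BJ310041, AY485121, the second probe sets of a gene, BQ169398, CD891243, BJ265323, CA639484, CA716620, BF200045, BJ265463, BJ322102, BJ268713, BJ241436, CA649877 and BT009528 were given beside these, chosen after their values were seen. BJ224514, CA611128 and CA694320 were added in the same way. Names came from the platform annotation, RefSeq and the study's tables. No sequence of a probe set was used here. Alternatives covered the floor, the filter, the scaling, the variance model, the arrays fitted, the threshold, a replicate block and each array left out. Python 3.11.15, numpy 2.4.6, pandas 2.3.3 and matplotlib 3.10.9 made the counts and figures.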

Additional observations from a re-analysis of the deposited data

Results flagged for a closer look

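The results below were singled out because the tissue difference under ABA and that in CK differed by the test of the difference itself (limma interaction, adjusted p below 0.05). Groups of 3 arrays are too small to test for a single outlying array. The test called 4882 probe sets over the whole array. It called 38 histone probe sets toward the endosperm, 21 LEA probe sets toward the embryo, the 2 probe sets of storage protein BJ299669 toward the embryo and 5 starch cleavage probe sets toward the endosperm. The starch cleavage genes, BJ299669 and 31 of the 47 histone probe sets were named by the study for changes in these same samples. Their counts are therefore no independent evidence.

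Among the genes with the largest embryo excess under ABA, the log2 tissue difference was larger than in CK by 3.47 for CA614315 (calcium signalling), 2.34, 1.43 and 2.17 for the alcohol dehydrogenases BQ166030, CA605311 and CD868238, 2.31 for the ethylene-responsive CD866886 and 1.82 for the LEA gene CK199583. It was larger by 1.28 and 0.81 for the lipid transfer family genes BQ838076 and BJ283868, 2.03 for the oxidase BJ208962, 1.37 for the protein modification gene BJ274189, 0.87 for the lipocalin BJ251528 and 1.13 for the acidic ribosomal protein CA696740. For the leading undescribed probe set and for AJ612459, also undescribed, it was larger by 3.24 and 4.14.

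Among the genes with the largest endosperm excess, the interaction was negative, so that the endosperm excess was larger under ABA, for the starch cleavage genes CA719001 (-2.93), BF293263 (-2.61), AL820663 (-1.95), CA644563 (-1.13) and CA720455 (-1.72). It was -1.61 and -0.68 for the cysteine proteases AJ612538 and BQ169109, -1.02 and -1.17 for the metal handling genes CA666515 and CA729143, and -2.33 and -1.0 for the beta-expansins AY543538 and CD897610. It was -1.96 for the carbohydrate metabolism gene BQ166746, -1.31 for the glutamine synthetase AY491968 and -1.0 for the cla30 protein CA640027. It was positive, a smaller endosperm excess than in CK, for the lipid transfer protein BJ296643 (3.70), pathogenesis-related protein 1 (BM136002, 0.63) and pathogenesis-related protein 4 (CD915938, 0.36).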

How the results depend on the processing

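The counts of calls under ABA stayed within 1.5 times the main ones under another floor, another filter on low signals, quantile or 75th percentile scaling, the fit without trend, a joint fit with the CK arrays and an adjusted p of 0.01. At 2-fold or more the calls fell to 6357 (3812 embryo, 2545 endosperm) and the interaction calls to 1767, as the stricter threshold requires. A joint fit of all 18 arrays gave 3703 endosperm calls and 1529 interaction calls. The interaction gave 2263 calls without trend and 2854 at an adjusted p of 0.01. The cause was not tested. Leaving out 1 array gave 11197 to 13772 calls under ABA (6412 to 8533 embryo, 4552 to 5239 endosperm) and 3846 to 5012 interaction calls. With floor and filter at 110, chosen after seeing the data, 6369 interaction calls were made.

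Of 199 named genes, 129 kept a call at 2-fold or more, and 177 to 186 when 1 array was left out. The call was lost for 39 without trend, for 39 in the joint fit of 18 arrays and for 60 under at least 1 alternative other than a stricter threshold. The Rab probe set X59133 (log2 -0.24) reversed to 0.00 under quantile normalization (adjusted p = 0.999). None of the 44 genes with the largest differences lost its call or direction under the alternatives run. Same-numbered arrays of the tissues did not deviate together (correlations across probe sets of 0.02, -0.00 and 0.02). No pairing by number was seen, but such correlations cannot show whether the tissues came from the same seeds. With the replicate number as a block, 13236 calls were made under ABA, 4457 for the interaction and 192 among the named genes.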
